A study of Mus musculus with 5 samples.

Results

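Smad4 encodes the common Smad, the partner that all activated receptor Smads share on the way to the nucleus, and its RNA was 6.69-fold higher in mutant than in wild-type lymphoid progenitors. Described here is Smad4 together with 9 further genes of the transforming growth factor beta (TGF-beta) pathway, 10 of the 55487 genes in the count table. They are the ligand Tgfb1, the receptors Tgfbr1 and Tgfbr2, the receptor Smads Smad1, Smad2, Smad3 and Smad5, Smad4, and the inhibitors Smad7 and Ski. Smad4 was chosen by its measured difference between the genotypes in these same libraries, and the others as its pathway partners, to ask whether they moved with it. Their differences between genotypes are therefore given as descriptions. The genes are part of the fit across all genes, and how many passed its threshold is stated as a count, with no p-value and nothing drawn from it. All 10 passed the filter on low counts and were found by symbol in the annotation of build GRCm38.

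The libraries are bulk RNA sequencing of sorted bone marrow common lymphoid progenitors (Lin-CD127+Flt3+), the cells that give rise to B, T and natural killer cells. SF1 mice (3 libraries) carry SclCre and the JAK2-V617F (VF) transgene, and wild-type (WT) mice (2 libraries) are the comparison. Marrow of both groups was taken 16 weeks after tamoxifen. Cre under control of the Scl gene is active in blood stem and progenitor cells, so the mutant kinase is not limited to lymphoid cells. The sources used here do not give age, sex, pooling of animals or whether WT mice carry SclCre. Nor do they say that each library is a separate animal, so p-values refer to the spread among these 5 libraries, which may be technical.

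TGF-beta family ligands bind a type II receptor, which recruits and activates a type I receptor kinase. The type I receptor phosphorylates receptor Smads, Smad2 and Smad3 for TGF-beta and activin and Smad1 and Smad5 for bone morphogenetic proteins (BMPs), and these join Smad4 to bind DNA. Smad7 and Ski dampen the signal at the receptor and in the nucleus. In blood formation TGF-beta is known to restrain the proliferation of stem cells and to oppose B-lymphocyte development.

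Total counts were 9350767 to 11290082 in SF1 libraries and 8894288 to 20424296 in WT libraries, so 1 count was worth 0.0503 to 0.114 CPM (counts relative to library size, scaled between libraries by TMM). Of 8 markers of the sorted cells 3 were called higher and 2 lower, and all 8 were measured. Over all genes tested 6.77% were called higher and 9.74% lower, which holds beside each marker count below. Flt3 was at 1594 to 1700 CPM in SF1 and 1511 to 1514 CPM in WT, and Dntt, the terminal transferase of lymphoid progenitors, at 4885 to 5375 CPM in SF1 and 4985 to 5144 CPM in WT. Ly6d (951 to 1033 CPM in SF1, 512 to 529 CPM in WT), Ly6a (75.8 to 77.6 CPM in SF1, 33.7 to 40.3 CPM in WT) and Il7r (421 to 465 CPM in SF1, 331 to 371 CPM in WT) lay higher in every SF1 library. Kit (212 to 252 CPM in SF1, 315 to 366 CPM in WT), Rag1 (63.9 to 113 CPM in SF1, 138 to 182 CPM in WT) and Rag2 (207 to 277 CPM in SF1, 291 to 301 CPM in WT) lay lower. Markers of other cell types also differed. The summed level of 9 neutrophil markers was 1964 to 5248 CPM in SF1 and 890 to 1115 CPM in WT, with 8 called higher and none lower by edgeR. Most of the WT sum was Mpo, at 779 and 988 CPM in WT and 774 to 990 CPM in SF1. S100a8 was at 217 to 818 CPM in SF1 and 19.6 to 22.3 CPM in WT. Of 8 dendritic cell markers 7 were tested and 6 were higher (1817 to 2266 CPM in SF1, 1059 to 1202 CPM in WT, Klk1 at 0 in SF1), and of 8 monocyte and macrophage markers 2 were higher and 4 lower (152 to 193 CPM in SF1, 77.0 to 117 CPM in WT, Cd5l at 0 in SF1). Of 6 plasma cell markers 3 were higher (776 to 1003 CPM in SF1, 362 to 398 CPM in WT). Most of the WT sum was Xbp1, at 205 and 240 CPM, and Sdc1, at 153 and 154 CPM. In SF1 these were at 261 to 285 CPM and 165 to 197 CPM. Igkc was at 136 to 185 CPM in SF1 and 0.342 to 0.604 CPM in WT. Igha was at 145 to 268 CPM in SF1 and 0.503 to 0.911 CPM in WT. Jchain was at 31.8 to 85.1 CPM in SF1 and 0.911 to 1.36 CPM in WT. Mzb1 lay lower in SF1, at 0.638 to 1.01 CPM against 1.21 to 2.16 CPM in WT. Of 8 B-lineage markers 6 were lower (612 to 896 CPM in SF1, 1158 to 1325 CPM in WT), and of 8 erythroid markers 6 were tested and 5 were lower (3.59 to 6.38 CPM in SF1, 47.0 to 70.6 CPM in WT, Hba-a2 at 0 in SF1). Of 8 megakaryocyte and platelet markers 5 were tested and 1 was higher (10.9 to 23.4 CPM in SF1, 11.1 to 11.96 CPM in WT, Gp1bb at 0 in all 5 libraries). Of 6 T cell markers 2 were tested and 1 was higher (263 to 292 CPM in SF1, 209 to 253 CPM in WT, Cd3e and Themis at 0 in SF1 and Cd3g in WT), of 6 natural killer cell markers 3 were tested and 1 was higher (183 to 203 CPM in SF1, 171 to 175 CPM in WT, Ncr1 at 0 in SF1 and Gzmb in all libraries), and of 6 stromal markers 2 were tested and 1 was lower (98.1 to 122 CPM in SF1, 88.0 to 102 CPM in WT). Most of the T cell sum was Lck (253 to 282 CPM in SF1, 204 to 249 CPM in WT). Nkg7 (149.5 to 175 CPM in SF1, 158 to 163 CPM in WT) made up most of the natural killer cell sum. Pdgfrb (96.9 to 120 CPM in SF1, 81.8 to 99.4 CPM in WT) made up most of the stromal sum. The part of these cells in the values below was not tested, and in bulk RNA fewer cells of a type and less RNA per cell cannot be told apart.

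Among the 10 genes, Smad4 was set apart by the size of its difference, and its partners did not share it. By edgeR's quasi-likelihood test 2 of the 10 were called higher in SF1 (Smad4 and Smad7) and 2 lower (Tgfb1 and Tgfbr2), against a background of 16.5% of the 14423 genes tested called in either direction, 6.77% higher and 9.74% lower. Since the contrast was used to choose Smad4, nothing is read from this count. By the DESeq2 test or with no filter on low counts it was 5 of 10, with 3 lower. It was 2 of 10 without SF1 replicate 3 or WT replicate 1. The Smad7 call was lost when SF1 replicate 1 or 3 or either WT replicate was left out, and the Tgfbr2 call when SF1 replicate 2 or 3 or either WT replicate was. Smad3 was called lower without WT replicate 2. Apart from Smad4, the largest difference was that of Tgfb1, at -1.0 on the log2 scale, and the median log2 fold change of the 9 other genes was -0.13. The 2 genotypes did not overlap for 6 of the 10 genes, 2 of them higher and 4 lower in SF1. Over all genes tested this held for 49%, with 24.8% higher and 24.2% lower.

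**Figure D1:**
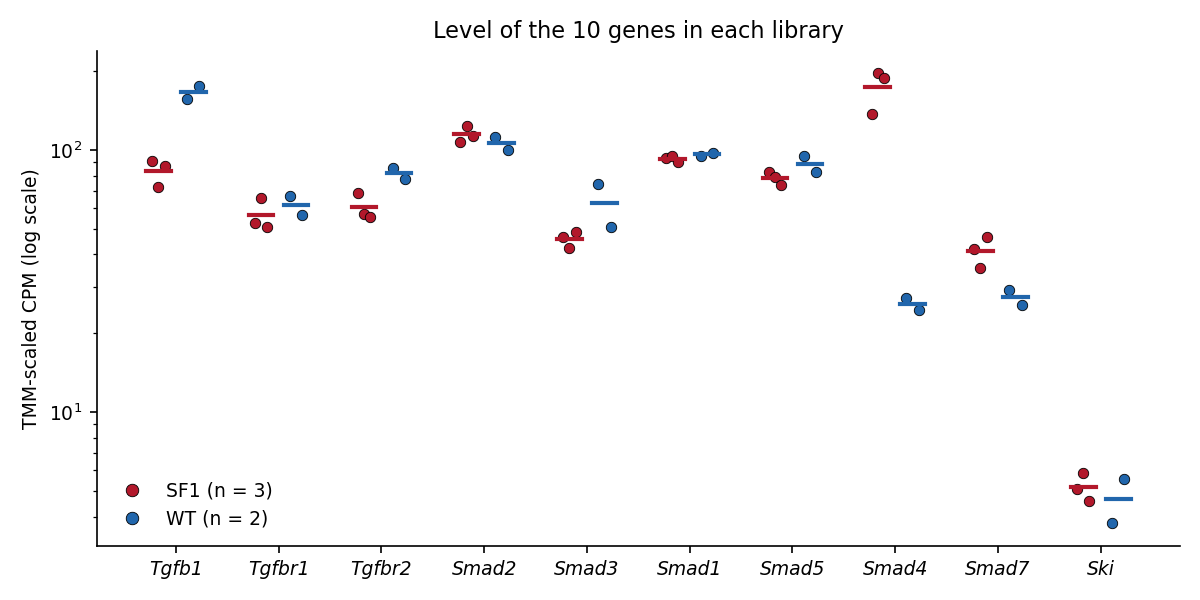
TMM-scaled CPM (log axis) of the 10 genes in the 3 SF1 and 2 WT libraries; points are libraries and bars are group means. Smad4 lies between 137 and 197 CPM in SF1 and between 24.6 and 27.2 CPM in WT, and Tgfb1 lies lower in SF1 than in WT.

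The ligand gene was lower in SF1. Tgfb1 (ENSMUSG00000002603, chromosome 7, 25687002 to 25705077, plus strand) encodes TGF-beta 1, the main ligand of blood cells, made as a latent precursor. It was at 91.1, 72.1 and 86.8 CPM in SF1 libraries 1, 2 and 3, against 157 and 176 CPM in WT libraries 1 and 2. Every SF1 library was below both WT libraries. The log2 fold change, SF1 over WT, was -1.0 (SE 0.11), a mean of 83.3 ± 9.95 CPM in SF1 and 167 ± 13.2 CPM in WT (SD, n = 3 and 2). Platelets and their precursors are known to be rich in this ligand. The platelet chemokine gene Pf4 was at 1.70 to 6.80 CPM in SF1 and 0.342 to 0.604 CPM in WT, opposite in direction to Tgfb1.

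The receptor pair was uneven. Tgfbr2 (ENSMUSG00000032440, chromosome 9, 116084293 to 116175360, minus strand), the type II receptor that binds the ligand, was at 68.8, 57.0 and 55.6 CPM in SF1, against 85.6 and 77.8 CPM in WT. The groups did not overlap, and the log2 fold change was -0.44 (SE 0.12). Tgfbr1 (ENSMUSG00000007613, chromosome 4, 47353222 to 47414931, plus strand), the type I receptor kinase that phosphorylates Smad2 and Smad3, was at 52.7, 65.6 and 50.9 CPM in SF1, against 66.9 and 56.4 CPM in WT. Its groups overlapped, with a log2 fold change of -0.13 (SE 0.14), and 0.0011 without WT replicate 1.

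The bases upstream of the ligand gene, the type II receptor gene and the type I receptor gene are shown because the first pair lay lower in every SF1 library and the third did not. Each window is the 250 bases before the RefSeq transcript start (GRCm38.p6), 5′ to 3′ on the gene's strand: chr7:25686752-25687001 for Tgfb1, chr9:116175364-116175613 for Tgfbr2 and chr4:47352972-47353221 for the upstream start of Tgfbr1. Capitals mark matches, on either strand, to CAGAC, letters that Smad3 and Smad4 bind, and to GGGCGG, the GC box.
Tgfb1: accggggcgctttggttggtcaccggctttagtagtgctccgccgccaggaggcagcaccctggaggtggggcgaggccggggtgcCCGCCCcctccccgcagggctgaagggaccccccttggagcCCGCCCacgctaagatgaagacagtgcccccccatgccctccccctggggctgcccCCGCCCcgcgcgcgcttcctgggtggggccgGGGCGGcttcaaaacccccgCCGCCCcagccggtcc
Tgfbr2: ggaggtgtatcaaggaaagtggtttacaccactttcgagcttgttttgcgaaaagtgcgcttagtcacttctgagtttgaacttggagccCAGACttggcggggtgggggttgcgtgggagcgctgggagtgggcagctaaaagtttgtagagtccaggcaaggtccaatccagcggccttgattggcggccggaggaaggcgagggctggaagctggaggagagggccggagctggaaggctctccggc
Tgfbr1: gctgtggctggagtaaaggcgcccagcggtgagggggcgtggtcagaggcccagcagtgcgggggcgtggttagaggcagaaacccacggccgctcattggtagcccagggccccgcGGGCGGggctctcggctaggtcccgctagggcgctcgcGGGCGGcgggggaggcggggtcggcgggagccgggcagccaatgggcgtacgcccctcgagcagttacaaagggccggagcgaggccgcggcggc
Tgfb1 held 5 matches to GGGCGG and none to CAGAC, Tgfbr2 held 1 match to CAGAC and none to GGGCGG, and the upstream window of Tgfbr1 held 2 matches to GGGCGG and none to CAGAC. The window before a second RefSeq start of Tgfbr1 (chr4:47385966-47386215), not printed, held 1 match to CAGAC and none to GGGCGG, as that of Tgfbr2 did. No matches overlapped each other. TTCNNNGAA, the letters bound by STAT factors downstream of JAK2, was in none of the 3 windows. Of 32851 RefSeq windows of the same length, 42.2% held CAGAC, 32.7% GGGCGG and 7.02% TTCNNNGAA. GC content was 75.2% for Tgfb1, 58.4% for Tgfbr2 and 74.8% for the upstream window of Tgfbr1, against a median of 52.4% over all windows. Smad3 and Smad1 also lay lower in every SF1 library. Their windows, not printed, held 2 matches (Smad3) and 1 match (Smad1) to GGGCGG and none to CAGAC. The promoter table held windows for 7 of the 10 genes.

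Of the receptor Smads of TGF-beta, Smad2 overlapped between genotypes and Smad3 did not. Smad2 (ENSMUSG00000024563, chromosome 18, 76241580 to 76310963, plus strand) was at 108, 124 and 113 CPM in SF1, against 112 and 100 CPM in WT (log2 fold change 0.11, SE 0.10). Smad3 (ENSMUSG00000032402, chromosome 9, 63646767 to 63757994, minus strand), which unlike the main form of Smad2 binds DNA directly, was at 46.8, 42.3 and 48.7 CPM in SF1, against 74.2 and 51.1 CPM in WT. All 3 SF1 libraries were lower than both WT libraries, by little from WT library 2, and the log2 fold change of -0.46 (SE 0.16) depended on which WT library was used: it was -0.16 without WT replicate 1 and -0.70 without WT replicate 2.

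On the BMP branch, Smad1 (ENSMUSG00000031681, chromosome 8, 79338395 to 79399518, minus strand) had the narrowest spread of the 10 genes relative to its mean, in each genotype, at 93.4, 94.8 and 90.3 CPM in SF1, against 95.3 and 97.7 CPM in WT. Its groups did not overlap although the log2 fold change was only -0.06 (SE 0.08). Smad5 (ENSMUSG00000021540, chromosome 13, 56703010 to 56742377, plus strand), which carries the same kind of signal, was at 82.7, 79.0 and 73.6 CPM in SF1, against 94.8 and 82.3 CPM in WT (log2 fold change -0.18, SE 0.10). Smad5 overlaps 3 short annotated RNA genes, all of which had 0 counts.

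Smad4 (ENSMUSG00000024515, chromosome 18, 73639009 to 73703780, minus strand) was at 137, 197 and 188 CPM in SF1, against 27.2 and 24.6 CPM in WT. These values rest on 1291, 2245 and 2047 counts in SF1 and 540 and 216 counts in WT. The lowest SF1 library was far above the highest WT library, and the SF1 libraries varied more among themselves (174 ± 32.1 CPM, SD, n = 3) than the WT libraries (25.9 ± 1.82 CPM, n = 2). The log2 fold change was 2.74 (SE 0.17), and 84 of the 14423 genes tested had a higher one. It stayed between 2.61 and 2.89 over 13 other settings, among them each library left out in turn and a correction for GC content and length. No exon of another annotated gene overlaps an exon of Smad4.

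The inhibitors differed from each other. Smad7 (ENSMUSG00000025880, chromosome 18, 75367529 to 75395935, plus strand), itself a target of TGF-beta signalling that blocks the type I receptor, was at 41.8, 35.5 and 46.6 CPM in SF1, against 29.2 and 25.6 CPM in WT. Every SF1 library was higher than both WT libraries, and the log2 fold change was 0.58 (SE 0.14). After GC and length correction it was 0.80, while the median over all genes was -0.04 with that correction and 0.02 without it. Ski (ENSMUSG00000029050, chromosome 4, 155154075 to 155222592, minus strand), a nuclear repressor of Smad complexes, was the least abundant of the 10, at 5.11, 5.87 and 4.60 CPM in SF1, against 3.77 and 5.58 CPM in WT. Its groups overlapped (log2 fold change 0.18, SE 0.28), and the sign turned without WT replicate 1 (-0.10).

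**Figure D2:**
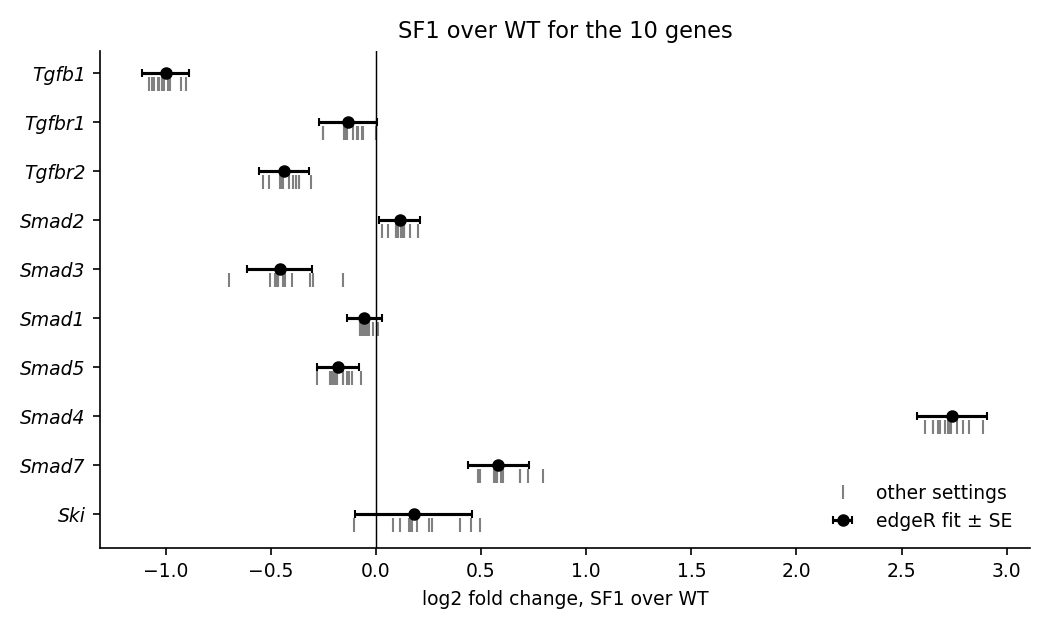
Log2 fold change, SF1 over WT, of the 10 genes, with the SE of the edgeR fit (black) and the values under 13 other settings, 12 for Ski (grey ticks). Smad4 stands at 2.74, all others lie between -1.0 and 0.58, and ticks of Smad1, Tgfbr1 and Ski reach or cross 0.

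Compared per kilobase of exon, Smad4 stood at the top of the 10 genes in SF1 and near the bottom in WT. In SF1 it came first, at 46.9 TMM-scaled CPM per kb (37.0 to 53.0), above Tgfb1 at 16.5 (14.3 to 18.1), and the 2 ranges did not overlap. In WT it came eighth, at 6.97 CPM per kb (6.63 to 7.32), below Tgfbr1 at 9.43 (8.63 to 10.2) and above Smad7 at 6.07 (5.67 to 6.47). In SF1 the order below Smad4 was Tgfb1, Smad1, Smad2, Smad5, Smad7, Tgfbr1, Smad3, Tgfbr2 and Ski. Of these neighbours, Tgfb1 and Smad1 overlapped, as did each step from Smad5 down to Tgfbr2. In WT the order was Tgfb1, Smad1, Smad2, Smad5, Smad3, Tgfbr2, Tgfbr1, Smad4, Smad7 and Ski, and each step from Smad2 down to Tgfbr1 overlapped. Ski was the lowest in both genotypes, at 0.933 CPM per kb in SF1 and 0.841 CPM per kb in WT.

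Of the summed per-kilobase level of Smad1, Smad2, Smad3, Smad4 and Smad5, Smad4 made up 44.2%, 52.7% and 52.4% in SF1, against 11.9% and 12.3% in WT. The other 4 Smads together were at 46.7, 47.5 and 46.0 CPM per kb in SF1, against 54.2 and 47.3 CPM per kb in WT. The common Smad thus exceeded Smad2 per length in each SF1 library, by ratios of 3.02, 3.75 and 3.92, and was below it in the WT libraries, with ratios of 0.572 and 0.581.

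**Figure D3:**
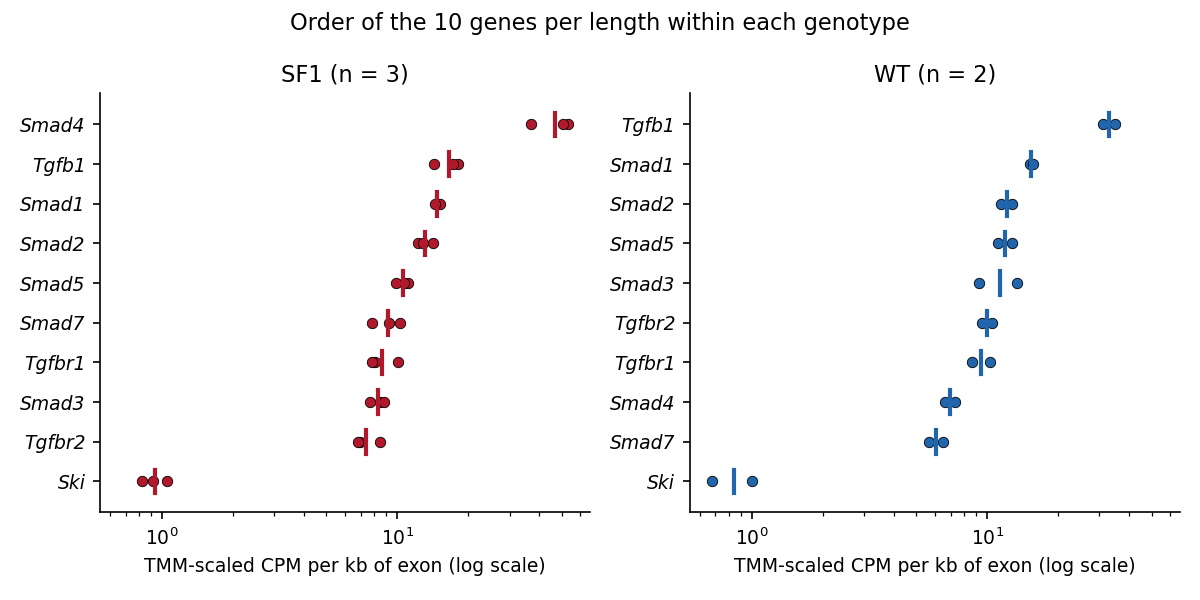
TMM-scaled CPM per kilobase of exon (log axis) of the 10 genes, ordered by mean within SF1 (left) and WT (right); points are libraries and vertical bars are means. Smad4 is at the top in SF1, at 46.9, and eighth in WT, at 6.97.

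The wider pathway was covered by a textbook list of 89 other genes, of which 65 passed the filter on low counts. Of the 65, 9 were called higher and 6 lower in SF1 and 50 did not pass. That is 23.1% called, against 16.5% of all genes tested, with 13.8% higher and 9.23% lower, against 6.77% and 9.74% of all genes. The median log2 fold change was 0.07 over these 65 genes and 0.02 over all genes tested. For 3 of the 9 higher genes, Inhba, Pmepa1 and Id1, no WT library reached the filter's 0.932 CPM. They entered the test only through SF1, where they are high, so their calls support nothing, and the other higher genes number 6. Of these 6, Tgfbi reached 0.932 CPM in only 1 WT library. It too passed the filter only with its SF1 counts, so its call supports nothing either. The 23.1% and 13.8% above include Inhba, Pmepa1, Id1 and Tgfbi, so neither share is read as a result. The number called was 6 without SF1 replicate 2, 7 without SF1 replicate 3 and 6 without WT replicate 1. With 1 WT library left, that library is assumed to vary like the others.

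Of 11 listed genes for proteins that store and release the latent ligand, 6 were tested. Of these 6, 2 were called lower (33.3%, against 9.74% of all genes tested) and none higher. Ltbp4, which encodes a latent TGF-beta binding protein of the extracellular matrix, was at 0.745, 1.58 and 1.47 CPM in SF1, against 7.95 and 5.81 CPM in WT (log2 fold change -2.43 ± 0.35 SE, edgeR adjusted p = 0.00262). Its relative Ltbp3 was at 24.3, 24.1 and 28.0 CPM in SF1, against 40.5 and 40.2 CPM in WT (log2 fold change -0.66 ± 0.12 SE, edgeR adjusted p = 0.00693; 0.0532 after GC and length correction). Both genes were lower in every SF1 library, as was Tgfb1. Nrros, the most abundant of the 6, overlapped between genotypes, at 785, 654 and 702 CPM in SF1, against 727 and 667 CPM in WT. Its log2 fold change was 0.03 (edgeR adjusted p = 0.837), and that of Furin was -0.09 (edgeR adjusted p = 0.719). Thrombospondin 1, an activator of the latent ligand encoded by Thbs1, varied widely, at 29.7, 83.3 and 5.61 CPM in SF1 and 27.4 and 107 CPM in WT (adjusted p = 0.584, and 5.36e-07 with no filter on low counts). The integrin gene Itgav did not pass (log2 fold change -0.33, edgeR adjusted p = 0.217).

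Ligands other than Tgfb1 were scarce: of 12 listed, 9 were below the filter, and 3 of these had no counts. Inhba, which encodes a subunit of activin, had 6, 17 and 32 counts in SF1, against 3 and 2 counts in WT (log2 fold change 3.20 ± 0.81 SE). It passed the filter only through its SF1 counts and was not tested with SF1 replicate 2 or 3 left out, and the call did not hold with either WT replicate left out. Tgfb3 had 4.25, 3.85 and 2.21 CPM in SF1, against 4.43 and 8.54 CPM in WT (adjusted p = 0.144). Gdf11, a ligand of the activin type, had a log2 fold change of 0.37 (adjusted p = 0.709).

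Of 11 further receptor genes 9 were tested and 1 was called higher (11.1%, against 6.77% of all genes tested). This was Acvr1b, the activin type I receptor that also uses Smad2 and Smad3, at 7.13, 8.23 and 7.996 CPM in SF1, against 3.02 and 4.44 CPM in WT (log2 fold change 1.10 ± 0.26 SE, edgeR adjusted p = 0.0223). Adjusted p was 0.0741 with SF1 replicate 2 left out, 0.0583 with SF1 replicate 3 left out and 0.181 with WT replicate 1 left out. Acvr2b, an activin type II receptor, had a log2 fold change of 0.69 (adjusted p = 0.175, and 0.0268 without WT replicate 1), Bmpr1a, a BMP type I receptor, 1.58 (adjusted p = 0.182) and Tgfbr3, the co-receptor betaglycan, -0.62 (adjusted p = 0.232). Of the remaining Smads, the inhibitory Smad6 was at 2.87, 2.28 and 2.11 CPM in SF1, against 1.71 and 1.25 CPM in WT (adjusted p = 0.252), and Smad9 had no counts.

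Negative regulators went both ways. All 20 listed were tested. Of these, 3 were called higher (15%, against 6.77% of all genes tested) and 1 lower (5%, against 9.74%). The 3 include Pmepa1, whose call supports nothing, so the 15% is not read as a result. Ncor1, a corepressor that works with Ski, was at 370, 338 and 338 CPM in SF1, against 261 and 249 CPM in WT (log2 fold change 0.45 ± 0.08 SE, edgeR adjusted p = 0.00643). Smurf2, a ubiquitin ligase that Smad7 brings to the receptor, was at 26.5, 24.3 and 26.5 CPM in SF1, against 15.6 and 19.6 CPM in WT (log2 fold change 0.56, edgeR adjusted p = 0.0345). Leaving out any SF1 replicate ended this call (adjusted p = 0.0752, 0.0682 and 0.104 for replicates 1, 2 and 3), as did leaving out WT replicate 1 (0.244). Nedd4l, another ubiquitin ligase of receptor Smads, was lower, at 40.5, 35.9 and 50.4 CPM in SF1, against 58.7 and 62.5 CPM in WT (log2 fold change -0.52, edgeR adjusted p = 0.0401). Its adjusted p was 0.0967 and 0.111 with SF1 replicate 1 and 2 left out, 0.118 and 0.122 with WT replicate 1 and 2 left out, and 0.0557 after GC and length correction.

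Among 12 adaptors, coactivators and positive regulators, 11 were tested. Of these, 1 was called lower (9.09%, against 9.74% of all genes tested) and none higher. Usp9x, a deubiquitinase known to act on Smad4 protein, was at 72.5, 60.7 and 57.2 CPM in SF1, against 120 and 94.5 CPM in WT (log2 fold change -0.76 ± 0.13 SE, edgeR adjusted p = 0.00637; 0.0576 without WT replicate 1). The coactivator gene Crebbp was at 135, 136 and 136 CPM in SF1, against 89.3 and 119 CPM in WT, just short of the threshold (log2 fold change 0.39, edgeR adjusted p = 0.0574). It passed by DESeq2 (0.0321), without WT replicate 2 (0.00814), with the stricter filter (0.0471), with no filter (0.00525) and after GC and length correction (0.0438). Usp4, a deubiquitinase of the type I receptor, had a log2 fold change of -0.20 (adjusted p = 0.11), and Zfyve9, the receptor Smad anchor, 1.30 (adjusted p = 0.193).

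Of 4 genes in the branch that runs through the kinase TAK1 and not through Smads, 2 were called lower. That is 50% of only 4 genes, against 9.74% of all genes tested. Tab1, an activating partner of TAK1, was at 34.5, 25.7 and 22.5 CPM in SF1, against 56.0 and 50.7 CPM in WT (log2 fold change -0.96 ± 0.17 SE, edgeR adjusted p = 0.00627). Traf6, the ubiquitin ligase upstream of it, was at 81.9, 82.0 and 65.3 CPM in SF1, against 113 and 100.2 CPM in WT (log2 fold change -0.49 ± 0.12 SE, edgeR adjusted p = 0.025). Traf6 no longer passed with SF1 replicate 2 left out (adjusted p = 0.0514), SF1 replicate 3 left out (0.0633) or WT replicate 1 left out (0.177). Map3k7, which encodes TAK1, had a log2 fold change of -0.25 (adjusted p = 0.158), and Tab2 0.30 (adjusted p = 0.24; 0.0342 without WT replicate 2).

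Of the genes that TGF-beta is known to induce, 10 of 14 were tested. Of these, 3 were called higher (30%, against 6.77% of all genes tested) and none lower. The 3 include Pmepa1 and Tgfbi, whose calls support nothing, so the 30% is not read as a result. Pmepa1, a target that in turn holds receptor Smads back and is also among the negative regulators above, was at 1.81, 4.12 and 3.31 CPM in SF1, against 0.704 and 0.911 CPM in WT (log2 fold change 1.97 ± 0.47 SE), and passed the filter only through SF1. Tgfbi, an extracellular protein gene also abundant in monocytes, was at 2.23, 4.55 and 13.1 CPM in SF1, against 0.855 and 1.14 CPM in WT (log2 fold change 2.77 ± 0.73 SE). Only 1 WT library reached the filter's 0.932 CPM, so Tgfbi passed only with its SF1 counts. The summed monocyte and macrophage markers were at 152, 193 and 185 CPM in SF1 libraries 1, 2 and 3. In WT libraries 1 and 2 they were at 77.0 and 117 CPM. Most of the sum was Csf1r, at 124, 158 and 141 CPM in SF1, against 48.2 and 76.5 CPM in WT. Cd68 was at 22.1, 29.9 and 34.7 CPM in SF1, against 10.5 and 14.3 CPM in WT. Of the 8 markers 4 were called lower. The summed neutrophil markers were at 1964, 2416 and 5248 CPM in SF1, against 890 and 1115 CPM in WT. The part of monocytes or neutrophils in Tgfbi was not tested. Gadd45b, a stress response gene, was at 7.77, 11.998 and 14.3 CPM in SF1, against 4.38 and 6.38 CPM in WT (log2 fold change 1.11 ± 0.30 SE, edgeR adjusted p = 0.0368). None of the 3 calls held with SF1 replicate 2, SF1 replicate 3 or WT replicate 1 left out in turn, with adjusted p = 0.0747, 0.0647 and 0.173 for Pmepa1, 0.0626, 0.0601 and 0.187 for Tgfbi and 0.107, 0.106 and 0.242 for Gadd45b. Without WT replicate 2 the adjusted p was 0.0601 for Pmepa1 and 0.0732 for Tgfbi, and Gadd45b was at 0.0532 after thinning to equal total counts. Bhlhe40 did not pass (log2 fold change 1.51, edgeR adjusted p = 0.071), except without SF1 replicate 1 (0.0278) and with no filter (0.0192).

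Of 7 BMP-induced genes 5 were tested. Of these, 2 were called higher (40%, against 6.77% of all genes tested) and none lower. The 2 include Id1, whose call supports nothing, so the 40% is not read as a result. Id2, an inhibitor of E-protein transcription factors, was at 29.4, 26.6 and 32.5 CPM in SF1, against 17.3 and 19.0 CPM in WT (log2 fold change 0.71 ± 0.14 SE, edgeR adjusted p = 0.0111; 0.0881 without WT replicate 1). Id1, of the same family, was low, with 7, 17 and 21 counts in SF1, against 3 and 1 counts in WT (log2 fold change 3.25 ± 0.71 SE). It too passed the filter only through SF1 and was not tested with SF1 replicate 2 or 3 left out, and the call did not hold with either WT replicate left out. Bambi, a decoy receptor, did not pass (log2 fold change 0.48, edgeR adjusted p = 0.171).

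**Figure D4:**
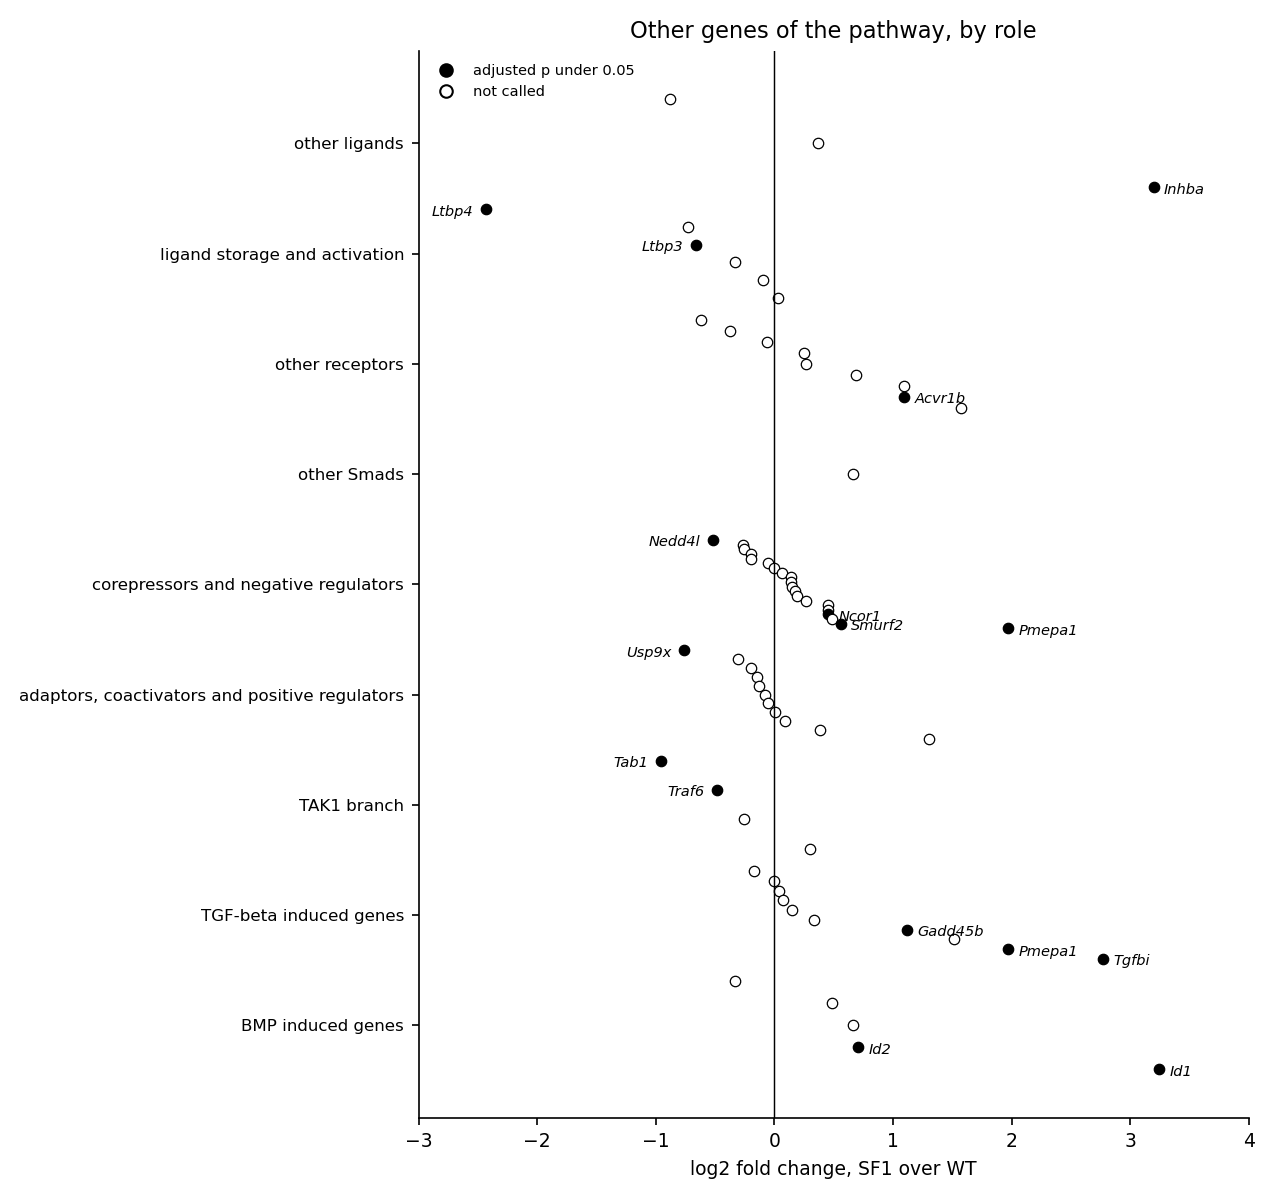
Log2 fold change, SF1 over WT, of the pathway genes tested beyond the 10, by role; filled points passed an adjusted p of 0.05 in the edgeR test and are named. Inhba and Id1, at 3.20 and 3.25, lie furthest to the right and Ltbp4, at -2.43, furthest to the left; Pmepa1 is among the calls of 2 roles.

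Smad4, Smad7 and Smad2 lie on the same chromosome, and genes beside Smad4 were compared. On its low-coordinate side, Mex3c, an RNA-binding ubiquitin ligase gene (73573044 to 73592575), was at 46.4, 66.2 and 55.1 CPM in SF1, against 25.2 and 27.4 CPM in WT (log2 fold change 1.09 ± 0.16 SE, edgeR adjusted p = 0.00285). Mbd2, a methyl-DNA binding protein gene (70568189 to 70626131), was at 44.3, 89.6 and 84.8 CPM in SF1, against 12.5 and 13.4 CPM in WT (log2 fold change 2.50 ± 0.29 SE, edgeR adjusted p = 0.0011). Both rose, and no SF1 library overlapped a WT library. Over all genes tested 6.77% were called higher, and 24.8% lay higher in every SF1 library. Dcc lies between Mbd2 and Mex3c, and a link between these differences and that of Smad4 was not tested. On the other side, Elac1, a tRNA-processing enzyme gene, did not pass (log2 fold change -0.18, edgeR adjusted p = 0.497), and neither did Me2, a mitochondrial malic enzyme gene (log2 fold change -0.23, edgeR adjusted p = 0.123), which passed as lower after GC and length correction (0.0323). Dcc had 1 count and Mro none over all libraries.

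The 5 genes nearest to Smad4 in pattern, of 9839 genes with at least 5 CPM, lay on other chromosomes. Likeness was the root mean square difference of log2 CPM, each gene centred on its own mean over the 5 libraries. Most of the pattern of Smad4 is the gap between genotypes by which it was chosen. Genes with a similar gap are therefore found by construction, and the list is a description that supports nothing. Gna12, a G protein alpha subunit gene, was nearest (0.113), at 92.9, 124 and 113 CPM in SF1, against 18.4 and 18.6 CPM in WT. Ybx3, a cold-shock domain protein gene, followed (0.116), at 130, 200.1 and 198 CPM in SF1, against 22.5 and 23.5 CPM in WT. Then came the phosphatase subunit gene Ppp2cb (0.153), the scaffold kinase gene Cask (0.167) and the selenoprotein gene Selenon (0.211). Cask, at 5.42, 10.8 and 7.54 CPM in SF1 and 1.11 and 1.02 CPM in WT, reached the mean of 5 CPM only through SF1.

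**Figure D5:**
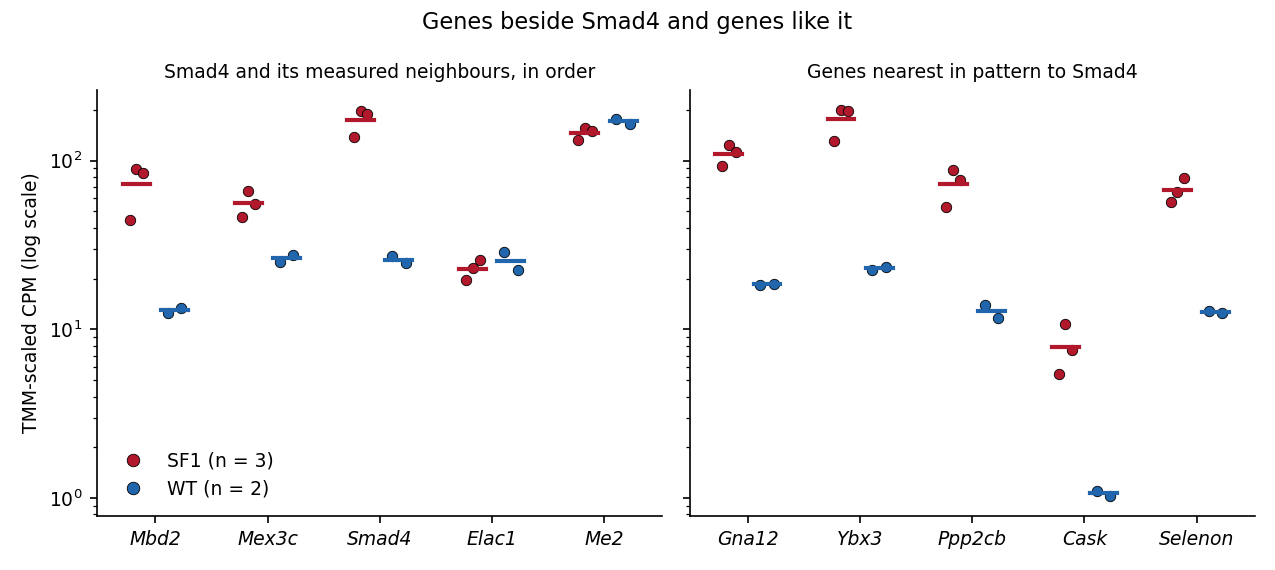
TMM-scaled CPM (log axis) in each SF1 and WT library of Smad4 and its measured neighbours in chromosomal order (left) and of the 5 genes nearest to it in pattern (right); bars are group means. Mbd2, Mex3c and Smad4 are higher in every SF1 library, while Elac1 and Me2 are not.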

How the data were processed

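Whole-number counts per gene in 5 libraries, not normalized, were deposited by the authors. Tools were HISAT2 2.2.1 and featureCounts 2.0.1 with build GRCm38, per the submitters' processing notes; the sources used here give neither annotation release nor strand setting. Per the labels' protocols, SMART-Seq cDNA (v2 or v4, not said for which library) was made into Nextera XT libraries, kits that mark neither molecules nor strand, so PCR copies count as reads. Symbols came from GENCODE M21; 55227 of 55487 identifiers matched.

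SF1 was compared with WT over all genes with edgeR 4.0.16 (R 4.3.3): TMM scaling, filterByExpr (minimum count 10), quasi-likelihood F test, Benjamini-Hochberg adjustment over all 14423 genes tested, threshold 0.05, no covariate; the test was checked on simulated counts. SEs derive from the F statistic, and log2 values for pattern likeness use a prior count of 2. Alternatives were DESeq2 1.42.0 (size factors, test), other filters, thinning, each library left out, a replicate block and a spline correction for GC content and length of the longest transcript. The members and lists were chosen with earlier results of these data known. Named are the 10 genes, up to 4 genes with the smallest p per pathway role, overlapping genes, 3 coding genes on each side of Smad4 and the 5 nearest in pattern. Others (Flt3, Dntt, Pf4, Nrros, Furin, other single markers, genes at 0) were chosen after their values were seen.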

Additional observations from a re-analysis of the deposited data

How the results depend on the processing

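The log2 fold change of Smad4, which was chosen by it, was 2.61 to 2.89 over 13 alternatives, and its rank per length was 1 in SF1 and 8 in WT with the longest transcript or TPM scaling too. The number of genes called was 2382, and 986 to 2170 with 1 library left out (986 without WT replicate 1, 1234 without SF1 replicate 2, 1294 without SF1 replicate 3). For the other pathway genes it was 15, and 6 to 14 with 1 library left out. For the 10 genes it was 4, and 2 to 3 with 1 library left out: the calls of Tgfbr2 and Smad7 were lost under several settings. With the replicate number as a block 1519 genes, 9 pathway genes and 2 of the 10 genes were called. The labels link same-numbered libraries by nothing but the number. Their deviations from group means correlated at 0.0356 (number 1) and 0.0646 (number 2). Deviations of the 2 WT libraries mirror each other, so these values cannot show whether a number marks a shared batch. With 1 library left out, log2 fold changes turned sign for Gdf11 (-0.23 to 1.02), Thbs1 (-1.92 to 0.53) and Elac1 (-0.34 to 0.014), none of them called with all libraries and the filter on low counts. Without WT replicate 1 the sign also turned for Ski (-0.10) and Tgfbr1 (0.0011), and with GC and length correction plus the block for Smad1 (0.012). The cause of these shifts was not tested. WT replicate 1 held 20424296 counts, so leaving it out removes the deepest library and leaves WT with 1. At this depth genes such as Inhba and Id1, with 5 or fewer counts in WT, have wide errors.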
